A study of Mus musculus with 30 samples.

Results

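The enzymes that make, phosphorylate and dispose of NAD around Nampt were followed in mouse heart, as the transcripts of 8 genes picked by name: Nampt, Naprt1, Nmnat1, Nmnat3, Nadsyn1, Nadk, Nnt and Nnmt. All 8 were among the 13575 genes of the deposited expression table, and all 8 passed the filter on low values that left 13256 genes for testing. RNA was measured in 6 heart libraries at 2 months of age and ZT10, that is, 10 hours after lights on. The 3 libraries labelled CM-RevDKO come from hearts in which both REV-ERB genes, Rev-erba and Rev-erbb, are floxed and removed in heart muscle cells by Cre under the αMHC promoter. The other 3 are labelled RevFloxed control and carry the floxed alleles. This comes from the labels' protocol for ChIP hearts, which sets hearts with Cre against hearts without it, so the receptors' loss and the presence of Cre cannot be told apart. Atria were trimmed before RNA extraction, and neither sex nor strain of the RNA hearts is stated in the labels. The 24 other samples of the series, from ChIP and Cut&Run, were not analysed here.

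NAD is rebuilt in most tissues from nicotinamide, the product that NAD-consuming enzymes release. NAMPT joins nicotinamide to phosphoribosyl pyrophosphate (PRPP) to give nicotinamide mononucleotide (NMN), the rate-limiting step of this salvage route, and the NMNAT enzymes turn NMN into NAD. NAPRT opens a parallel route from nicotinic acid, which NADSYN1 closes, while NNMT methylates nicotinamide and so takes it out of salvage. Nampt is a known output gene of the circadian clock, driven by BMAL1 and CLOCK through E-boxes, and REV-ERB receptors are repressors within that clock.

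Promoter windows show what sequence lies at the start of the gene with the largest change among the 8, beside that of a gene of the same pathway which did not pass the test. They are taken from RefSeq (GRCm38.p6, which is mm10), run from 250 bases before to 50 bases after an annotated start, and are printed 5′ to 3′ along the gene. Of the 8 genes, 5 matched (Nampt, Nmnat1, Nmnat3, Nadsyn1 and Nadk), with 7 windows. Both strands were searched for the E-box CACGTG, its variant CACGTT and the D-box core TTANGTAA, to which E4BP4 binds. Also searched was AGGTCA, a nuclear receptor core that is only part of the element bound by REV-ERB receptors. The bases flanking AGGTCA were not searched. Capitals mark every match. The windows are chr12:32820085-32820384 (+ strand) for Nampt and chr4:155563565-155563864 (+ strand), the second annotated start, for Nadk.
Nampt: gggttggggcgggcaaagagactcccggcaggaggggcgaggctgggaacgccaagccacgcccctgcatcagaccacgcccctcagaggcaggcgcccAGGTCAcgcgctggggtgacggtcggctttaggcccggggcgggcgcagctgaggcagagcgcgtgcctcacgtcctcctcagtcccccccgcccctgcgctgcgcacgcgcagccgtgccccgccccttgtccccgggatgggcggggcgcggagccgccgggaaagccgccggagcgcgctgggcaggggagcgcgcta
Nadk: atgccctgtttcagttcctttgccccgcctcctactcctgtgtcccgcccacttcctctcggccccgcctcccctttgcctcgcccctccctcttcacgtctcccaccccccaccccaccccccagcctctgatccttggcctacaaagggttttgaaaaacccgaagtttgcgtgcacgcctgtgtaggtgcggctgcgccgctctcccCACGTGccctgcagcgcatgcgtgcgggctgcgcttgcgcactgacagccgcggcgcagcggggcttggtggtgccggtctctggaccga
The Nampt window held AGGTCA once, starting 151 bases before the annotated start, and none of the other 3 motifs. The Nadk window held CACGTG once, starting 40 bases before its start, a palindrome that reads alike on both strands. Of the 7 windows it was the only one with CACGTG, so the printed pair does not stand for the other genes. The window at the first annotated Nadk start (chr4:155562131-155562430) held no match. In Nmnat3 a single AGGTCA lay 23 bases after the annotated start of its window, and the other 4 windows held no match. That Nmnat3 window, chr9:98296320-98296619, lies inside the gene, whose range begins at base 98287433. Among all 32851 windows of this length, 16.3% held AGGTCA, 7.15% CACGTG, 4.68% CACGTT and 2.32% TTANGTAA. A match is a description of letters, and the missing motifs say only that they are not in this window.

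Values were read as FPKM, which corrects fragment counts for the length of the transcript and the size of the library. The table names no unit, and TPM, which differs from FPKM by a single factor within a library, could not be told apart from it. Differences are given on the log2(FPKM + 1) scale, which understates those of genes with low values, and were tested with limma across all 13256 genes with Benjamini-Hochberg adjustment and a threshold of 0.05. Library sums lay between 678722 and 712158, and sequencing depth is unknown. By this test 332 genes (2.5%) differed, 165 lower (1.24%) and 167 higher in the libraries labelled CM-RevDKO. Scaled without the mitochondrially encoded genes, the split was 212 lower and 118 higher. The targeted gene Nr1d1 (REV-ERBα) stood at 47.4 to 55.6 FPKM in libraries labelled CM-RevDKO, above the 15.01 to 23.9 FPKM in those labelled control, against the direction of its label (log2 difference 1.28, adjusted p = 0.0124). That call ended in 4 of 19 alternatives (adjusted p of 0.0730 to 0.407), namely against a fold change of 1.5, without both control replicate 2 and CM-RevDKO replicate 1, with CM-RevDKO replicate 3 alone, and with a covariate for atrial markers (the mean log2 level of Myl7, Myl4 and Sln). In the fit with replicate 3 alone the spread comes from the 3 controls, and the lone library is assumed to vary like them. With the atrial covariate 30 genes passed in all, beside 332 without it. A call lost under that covariate therefore does not show that atrial tissue made the difference. Nr1d2 (REV-ERBβ) stood at 26.6 to 28.8 FPKM in the CM-RevDKO libraries, against 30.6 to 40.3 FPKM in the control libraries (adjusted p = 0.175). Which exons were deleted is not stated in the labels, so these gene-level values do not check the labels, and every direction below rests on those labels. Heart muscle markers were high in every library, their 10 genes summing to 38987 to 41435 FPKM under the CM-RevDKO label and 36070 to 38650 FPKM under the control label, with none at 0.

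Nampt and Naprt1, the genes that open the nicotinamide and nicotinic acid routes, were lower where the label is CM-RevDKO, and none of the other 6 passed the test in either direction. That is 2 of 8 lower, where 1.24% of all tested genes were lower. Of the 8 differences 6 were negative, with a median of -0.19 on the log2 scale beside 0.02 for all tested genes. The members were chosen with results of these data known, so the count describes them and is no test of the group. The libraries are bulk RNA, in which fewer cells of a type and less RNA per cell cannot be told apart.

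**Figure D1:**
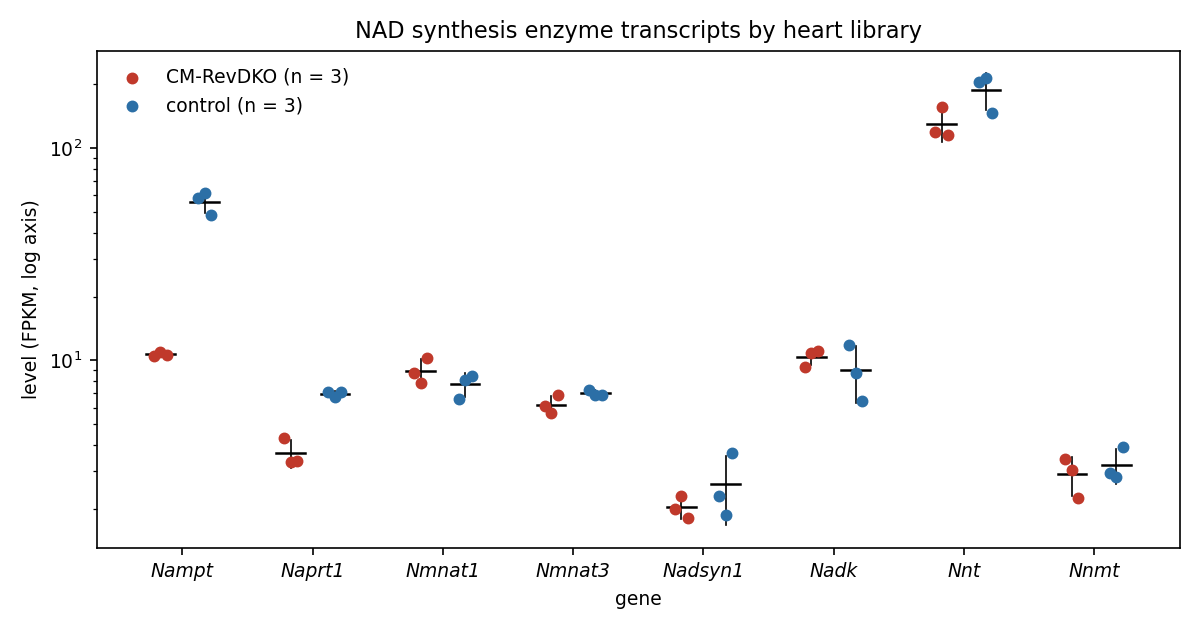
Level of each of the 8 enzyme transcripts in every library (points; FPKM on a log axis), with group mean and SD (lines), 3 libraries labelled CM-RevDKO on the left and 3 labelled control on the right for each gene. The groups do not overlap for 2 of the 8, Nampt and Naprt1, a share near the 23.1% of all tested genes whose groups do not overlap in either direction.

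Nampt (ENSMUSG00000020572, chr12:32820335-32853369 in mm10) was measured at 10.5, 10.9 and 10.6 FPKM in libraries labelled CM-RevDKO replicates 1, 2 and 3. The libraries labelled control replicates 1, 2 and 3 had 58.0, 61.3 and 48.5 FPKM. All 3 CM-RevDKO libraries lay far below the lowest control library, and their SD was 2.02% of their mean, against 11.9% for the control libraries. The mean of 10.7 ± 0.216 FPKM was 19.1% of the control mean of 55.9 ± 6.63 FPKM (SD, n = 3 each). The log2 difference was -2.28 (SE 0.11, 95% interval -2.53 to -2.02, adjusted p = 1.40e-04). Among the 13256 tested genes this was the fifth lowest difference (rank 5) and the sixth smallest p (rank 6). Nampt ranked 4333 by mean level in the CM-RevDKO libraries and 901 in the control libraries. The log2 difference lay between -2.37 and -1.95 under all 19 alternative settings. The call was kept with any library left out (adjusted p between 0.000697 and 0.00305) and with the atrial covariate (adjusted p = 0.0133). The largest adjusted p, 0.0153, came from CM-RevDKO replicate 3 alone, where the spread is that of the controls. With RNA from ZT10 alone, a lower level cannot be told apart from a shifted daily rhythm.

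**Figure D2:**
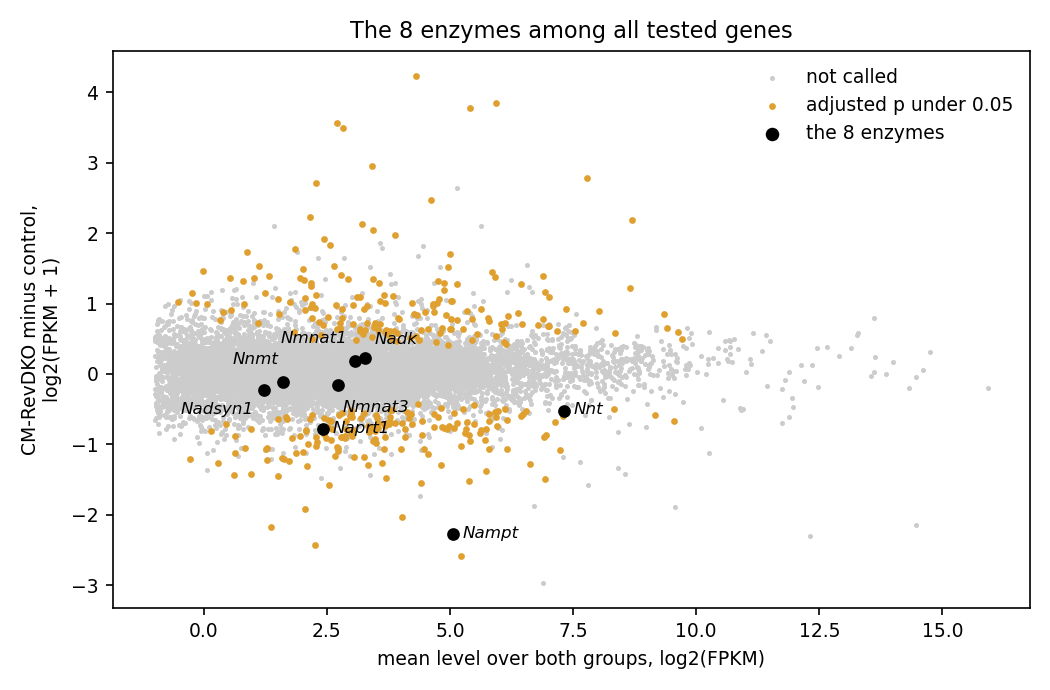
Difference between the libraries labelled CM-RevDKO and control (y axis, log2(FPKM + 1)) against mean level (x axis, log2 FPKM) for the 13256 tested genes; grey points did not pass the test, orange points did, and the 8 enzymes are black. Nampt, at -2.28, is among the lowest points, Naprt1 lies at -0.78, and the other 6 lie between -0.52 and 0.22.

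A second transcript inside the Nampt gene followed it, and was chosen after its values were seen. Gdap10, annotated as a long noncoding RNA at chr12:32824116-32826919, lies entirely within Nampt and on the same strand. It stood at 0.585, 0.541 and 0.652 FPKM in libraries labelled CM-RevDKO and at 3.25, 3.16 and 3.42 FPKM in those labelled control. The groups did not overlap, and the log2 difference was -1.42 (SE 0.12, adjusted p = 0.00200). Its mean was 18.1% of the control mean, beside 19.1% for Nampt, and the level of Gdap10 was 4.94% to 6.14% of that of Nampt in the CM-RevDKO libraries and 5.15% to 7.05% in the control libraries. Reads of Nampt RNA over this stretch cannot be told apart from Gdap10, so the transcripts are not independent measurements. With atrial markers as a covariate the difference of Gdap10 was -1.45 and the call ended (adjusted p = 0.0864), and with CM-RevDKO replicate 3 alone the difference was -1.37. The nearest protein-coding genes on either side of Nampt did not pass the test. Ccdc71l, listed in the table as 2010109K11Rik and 437391 bases away, stood at 3.60 to 4.53 FPKM in the CM-RevDKO libraries, against 3.09 to 4.72 FPKM in the control libraries (adjusted p = 0.961). Sypl, a synaptophysin-like gene 100485 bases beyond the other end, stood at 21.5 to 32.5 FPKM in the CM-RevDKO libraries, against 25.9 to 33.4 FPKM in the control libraries (adjusted p = 0.783).

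Naprt1 (now named Naprt, ENSMUSG00000022574, chr15:75890963-75894481), nicotinic acid phosphoribosyltransferase, stood at 4.31, 3.32 and 3.36 FPKM in libraries labelled CM-RevDKO and at 7.06, 6.75 and 7.12 FPKM in those labelled control. The groups did not overlap, as for 10.5% of all tested genes in this direction, and the spread was wider in the CM-RevDKO libraries, with replicate 1 the highest of the 3. The log2 difference was -0.78 (SE 0.12, 95% interval -1.05 to -0.51, adjusted p = 0.0170), and the mean was 52.5% of the control mean. The call ended without CM-RevDKO replicate 2 (adjusted p = 0.0795) and without control replicate 1, 2 or 3 (adjusted p = 0.0804, 0.0638 and 0.0792), while the difference stayed between -0.88 and -0.73 with any library left out. Eef1d, a subunit of the translation elongation factor complex 314 bases away, stood at 81.9 to 95.7 FPKM in the CM-RevDKO libraries, against 87.0 to 107 FPKM in the control libraries (adjusted p = 0.578). NADSYN1 takes up the product of this route after an NMNAT step and makes NAD with glutamine as nitrogen donor. Nadsyn1 (chr7:143795589-143822862) was the lowest of the 8 in both groups, at 1.99, 2.29 and 1.81 FPKM in the CM-RevDKO libraries and 2.30, 1.86 and 3.65 FPKM in the control libraries. The groups overlapped, with control replicate 3 the highest of all (log2 difference -0.22, 95% interval -0.67 to 0.23, adjusted p = 0.616). The difference was -0.023 without control replicate 3 and -0.37 without control replicate 2.

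The NMNAT enzymes join NMN, or its acid form, to the adenylate of ATP. Those followed here are known in mammals as a nuclear form, NMNAT1, and a mitochondrial form, NMNAT3. Nmnat2, a further gene of the family, was not among the measured genes, so the sum below leaves it out. Nmnat1 (chr4:149467569-149485210) stood at 8.76, 7.87 and 10.3 FPKM in libraries labelled CM-RevDKO and 6.61, 8.13 and 8.47 FPKM in those labelled control. Nmnat3 (chr9:98287433-98420533) stood at 6.09, 5.62 and 6.88 FPKM in the CM-RevDKO libraries and at 7.27, 6.87 and 6.87 FPKM in the control libraries. Both pairs of groups overlapped, and for Nmnat3 only CM-RevDKO replicate 3 reached the control range. Nmnat1 had a log2 difference of 0.19 (95% interval -0.12 to 0.50, adjusted p = 0.525). For Nmnat3 it was -0.16 (95% interval -0.40 to 0.08, adjusted p = 0.5004). With any library left out, the difference of Nmnat1 lay between 0.093 (without control replicate 1) and 0.27 (without CM-RevDKO replicate 2), and that of Nmnat3 between -0.22 (without CM-RevDKO replicate 3) and -0.098 (without CM-RevDKO replicate 2). Neither interval reaches the difference of Nampt. The ratio of Nampt to the sum of Nmnat1 and Nmnat3, within a library and so free of a common scale, was 0.710, 0.812 and 0.619 in the CM-RevDKO libraries and 4.18, 4.09 and 3.16 in the control libraries. Nampt thus stood below the sum of Nmnat1 and Nmnat3 in each CM-RevDKO library and above that sum in each control library. Taken singly, Nmnat1 and Nmnat3 each stood below Nampt in every library, for Nmnat1 narrowly in CM-RevDKO replicate 3 (10.3 against 10.6 FPKM). Nmnat1 shares 26 bases with Lzic at one end and encloses Tmem274, so reads there may be split between genes.

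NADK, the cytosolic NAD kinase, phosphorylates NAD to NADP, and NNT, in the inner mitochondrial membrane, uses the proton gradient to pass electrons from NADH to NADP. Nadk (chr4:155562381-155591001) stood at 9.34, 10.9 and 11.02 FPKM in libraries labelled CM-RevDKO and 11.8, 8.70 and 6.44 FPKM in those labelled control. The control libraries spread widely around the CM-RevDKO values, with an SD of 30.1% of their mean against 8.89% (log2 difference 0.22, 95% interval -0.23 to 0.67, adjusted p = 0.615). The difference was 0.029 without control replicate 3 and 0.42 without control replicate 1. Nnt (chr13:119335527-119409257) was the most abundant of the 8 in every library, at 119, 157 and 115 FPKM in the CM-RevDKO libraries and 205, 214 and 147 FPKM in the control libraries. CM-RevDKO replicate 2 lay above control replicate 3, so the groups overlapped. The mean was 69.1% of the control mean, and the log2 difference of -0.52 (SE 0.18, 95% interval -0.94 to -0.11) did not pass after adjustment (adjusted p = 0.198). That interval is not adjusted, and 16.6% of all tested genes had an unadjusted p under 0.05. Nnt did not pass in any of the 19 alternatives, which gave differences between -0.69 and -0.24, the smallest with atrial markers as a covariate. The C57BL/6J substrain is known to carry a deletion in Nnt, but these mice's strain is not known here.

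NNMT, nicotinamide N-methyltransferase, transfers a methyl group from S-adenosylmethionine to nicotinamide. Nnmt (chr9:48538002-48607655) stood at 3.44, 3.04 and 2.25 FPKM in libraries labelled CM-RevDKO and at 2.95, 2.82 and 3.90 FPKM in those labelled control. The groups overlapped throughout (log2 difference -0.11, 95% interval -0.49 to 0.26, adjusted p = 0.781). The ratio of Nampt to Nnmt in a library was 3.06, 3.61 and 4.72 in the CM-RevDKO libraries and 19.7, 21.8 and 12.4 in the control libraries, without overlap. Since Nnmt is known as abundant in fat and fibroblasts, their markers stand beside it. The 8 measured of 10 adipocyte markers summed to 617 to 1128 FPKM in the CM-RevDKO libraries and 728 to 857 FPKM in the control libraries, with 1 of 8, Plin4, lower past the test. The other 7 differences were positive, and the median of the 8 was 0.76 on the log2 scale, beside 0.02 for all tested genes. The call of Plin4 held without CM-RevDKO replicate 3 and ended without each other library (highest adjusted p = 0.140). The 10 fibroblast markers summed to 849 to 1112 FPKM in the CM-RevDKO libraries, against 872 to 1127 FPKM in the control libraries, with 7 of 10 positive (median 0.10) and none past the test. Their part in the values of Nnmt was not tested.

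**Figure D3:**
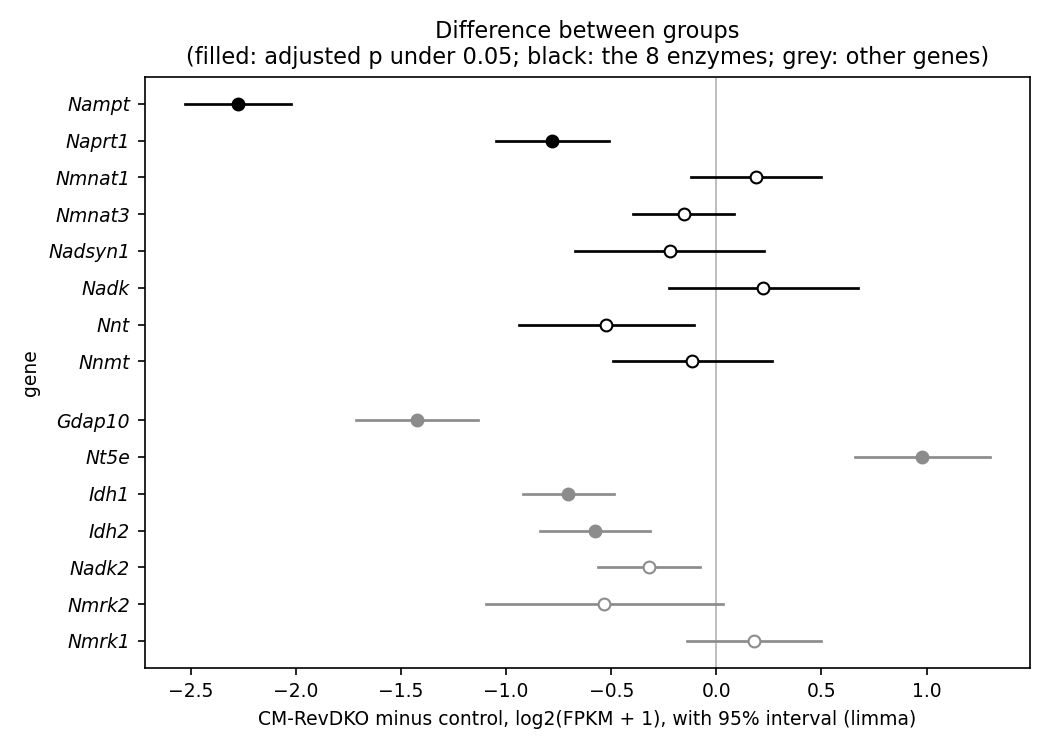
Difference between the libraries labelled CM-RevDKO and control for each of the 8 enzymes (black) and for Gdap10 and related genes (grey), on the log2(FPKM + 1) scale with the 95% interval from limma; filled points passed the test. Nampt, at -2.28, lies apart from the 7 other enzymes, which lie between -0.78 and 0.22.

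In the libraries labelled CM-RevDKO the order of mean levels was Nnt, Nampt, Nadk, Nmnat1, Nmnat3, Naprt1, Nnmt and Nadsyn1, and in those labelled control it was the same. The gaps within that order were not the same. In the CM-RevDKO libraries the range of Nampt overlapped that of Nadk, which overlapped that of Nmnat1, and those of Naprt1, Nnmt and Nadsyn1 overlapped in turn. In the control libraries Nampt stood clear of all others, Nadk, Nmnat1, Nmnat3 and Naprt1 overlapped in turn, and so did Nnmt and Nadsyn1. The 8 transcripts summed to 163, 201 and 161 FPKM in the CM-RevDKO libraries and 301, 310 and 232 FPKM in the control libraries. Nampt made up 6.45%, 5.45% and 6.58% of this sum in the CM-RevDKO libraries and 19.2%, 19.8% and 20.9% in the control libraries. The share differed by -13.8 percentage points without overlap (exact two-sided permutation p = 0.10, the smallest that 3 against 3 allows). Without Nnt, which dominates the sum, the difference was -36.5 percentage points (exact permutation p = 0.10).

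**Figure D4:**
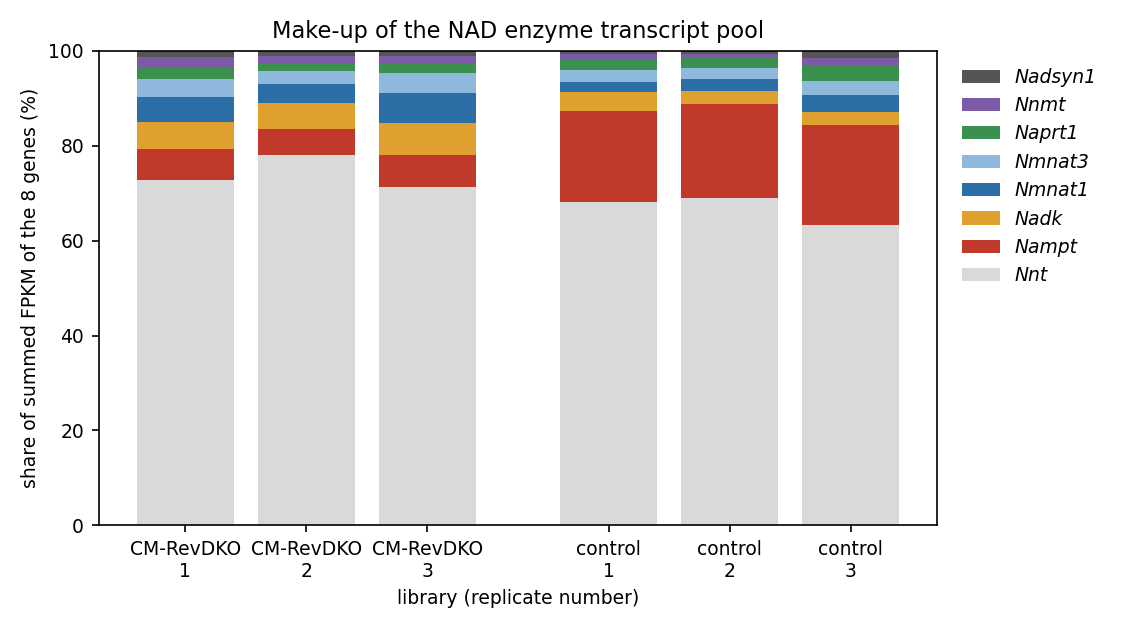
Share of each enzyme transcript in the summed FPKM of the 8 genes (percent, bars from 0 to 100) in each library, the 3 labelled CM-RevDKO on the left and the 3 labelled control on the right. The Nampt band spans 5.45% to 6.58% in the CM-RevDKO libraries and 19.2% to 20.9% in the control libraries.

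Other routes into NAD were read from lists of related genes. Of 15 other NAD synthesis enzymes listed, 7 were measured and 5 tested, and none passed in either direction (median 0.03). Of all tested genes 2.5% passed, so no call among 5 lies near that share. The smallest p was that of Nadk2, the mitochondrial NAD kinase, listed as 1110020G09Rik, which stood at 14.4, 16.1 and 15.4 FPKM in libraries labelled CM-RevDKO and 21.6, 18.7 and 18.0 FPKM in those labelled control. The groups did not overlap, but the log2 difference of -0.32 did not pass (adjusted p = 0.178). Entry through nicotinamide riboside needs the kinases NMRK1 and NMRK2, named here for their role after their values were seen. Nmrk2, the muscle form, listed as Itgb1bp3, stood at 4.76, 5.51 and 9.23 FPKM in the CM-RevDKO libraries and 8.26, 12.4 and 8.30 FPKM in the control libraries. Those groups overlapped (log2 difference -0.53, 95% interval -1.10 to 0.03, adjusted p = 0.328). Nmrk1, listed as BC016495, stood at 2.26 to 2.89 FPKM in the CM-RevDKO libraries, against 1.78 to 2.42 FPKM in the control libraries (adjusted p = 0.557). Tdo2 and Pnp2 were measured but fell under the filter, with entries of 0 in some libraries.

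Of 9 genes of precursor supply and NAD transport listed, 6 were tested and 1 rose, where 1.26% of all genes rose. Nt5e, which encodes the surface enzyme CD73 that takes phosphate from AMP and from NMN outside the cell, stood at 10.3, 8.43 and 7.75 FPKM in libraries labelled CM-RevDKO. In those labelled control it stood at 3.43, 4.58 and 3.91 FPKM. Every CM-RevDKO library lay above every control library, and the log2 difference was 0.98 (SE 0.14, adjusted p = 0.0143). The call ended without CM-RevDKO replicate 2 (adjusted p = 0.0590) and without control replicate 1 or 3 (adjusted p = 0.0645 and 0.0652), and with the atrial covariate (difference 0.86, adjusted p = 0.347). CD73 is also known as a marker of mesenchymal and endothelial cells, and endothelial markers, 9 of 10 positive (median 0.07) and none past the test, summed to 306 to 344 FPKM in the CM-RevDKO libraries, against 281 to 328 FPKM in the control libraries. Their part in the result was not tested. Slc25a51, the mitochondrial NAD carrier, listed as Mcart1, stood at 8.75 to 15.6 FPKM in the CM-RevDKO libraries, against 8.74 to 16.7 FPKM in the control libraries (adjusted p = 0.928).

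A list drawn up around NADPH production, the task of Nnt in mitochondria, held 2 genes that fell past the test among 13 measured. None rose past it, where 1.24% of all genes fell and 1.26% rose. Which of the 13 enzymes use NADP was not checked. Idh1, the cytosolic NADP-dependent isocitrate dehydrogenase, stood at 14.7, 14.1 and 13.4 FPKM in libraries labelled CM-RevDKO and 22.8, 22.4 and 25.3 FPKM in those labelled control (log2 difference -0.70, SE 0.09, adjusted p = 0.0113). Idh2, its mitochondrial counterpart, stood at 408, 517 and 465 FPKM in the CM-RevDKO libraries and 690, 740 and 637 FPKM in the control libraries (log2 difference -0.58, SE 0.11, adjusted p = 0.0464). Neither gene's groups overlapped. The call of Idh1 ended without CM-RevDKO replicate 2 or control replicate 1 or 3 (adjusted p = 0.0572, 0.0535 and 0.0544), and that of Idh2 whichever library was dropped (adjusted p between 0.0688 and 0.158), with median scaling (adjusted p = 0.0672), with a pseudocount of 5 (adjusted p = 0.0527) and without an intensity trend (adjusted p = 0.0822). With the atrial covariate the difference of Idh2 was -0.31 (adjusted p = 0.651) and that of Idh1 -0.80 (adjusted p = 0.150). The 13 genes had a median difference of -0.03 beside 0.02 for all tested genes.

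Among the listed users of NAD and enzymes that share substrates with Nampt and Nnmt, no gene passed the test. Of all tested genes 2.5% passed in either direction, and in lists this short no call lies near that share. None of 24 sirtuins, PARPs and other NAD consumers passed (12 negative, median -0.00), and Tiparp, which encodes PARP7, had the smallest p among them, at 2.56 to 2.75 FPKM in libraries labelled CM-RevDKO and 3.32 to 3.95 FPKM in those labelled control (adjusted p = 0.168). None of 9 genes of PRPP synthesis and phosphoribosyl transfer passed (median 0.09), the smallest p being that of Aprt, adenine phosphoribosyltransferase, at 12.1 to 16.3 FPKM in the CM-RevDKO libraries, against 8.59 to 11.2 FPKM in the control libraries (adjusted p = 0.168). Among 12 tested genes of the methyl donor cycle, which supplies NNMT, none passed (median 0.04). None of 6 genes of nicotinamide oxidation and NADH repair passed (median -0.01), and Nudt13, a mitochondrial NADH hydrolase, stood at 10.7 to 12.7 FPKM in the CM-RevDKO libraries, against 7.54 to 9.50 FPKM in the control libraries (adjusted p = 0.158). A p that misses the threshold does not show that these genes were alike in both groups.

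The clock activators known to drive Nampt stood higher in the libraries in which Nampt was lower. Of 19 clock genes 6 rose, Arntl, Clock, Npas2, Nfil3, Nr1d1 and Gm129 (Ciart), and 1 fell. Among all tested genes 1.26% rose and 1.24% fell. Arntl, which encodes BMAL1, stood at 12.5, 13.0 and 12.9 FPKM in libraries labelled CM-RevDKO and 0.295, 0.145 and 0.0831 FPKM in those labelled control (adjusted p = 1.72e-05, kept in all 19 alternatives). Clock stood at 5.24, 7.40 and 7.30 FPKM in the CM-RevDKO libraries and 3.05, 2.73 and 3.13 FPKM in the control libraries (adjusted p = 0.0186). Its call held without CM-RevDKO replicate 1 and ended without each of the 5 other libraries (adjusted p between 0.0523 and 0.0839). Nfil3, which encodes E4BP4, a repressor that binds D-boxes, stood at 14.8 to 16.4 FPKM in the CM-RevDKO libraries, against 2.27 to 3.89 FPKM in the control libraries (adjusted p = 0.00111). These genes were compared in the same libraries as Nampt, so their values are given side by side only. The call of Npas2 ended without CM-RevDKO replicate 2 or 3 or control replicate 1 or 2 (highest adjusted p = 0.0779). That of Gm129 ended without CM-RevDKO replicate 2 or control replicate 2 or 3 (highest adjusted p = 0.0682). Those of Nfil3 and Nr1d1 held with any library left out. With the atrial covariate the calls of Clock, Npas2 and Gm129 ended (adjusted p = 0.125, 0.161 and 0.316).

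The genes whose pattern over the 6 libraries was most like that of Nampt were found by the root mean square difference of log2(FPKM + 1), centred on each gene's mean, among 12229 others with a mean of at least 1 FPKM. The nearest was Myot, which encodes a Z-disc protein, with a difference of 0.117 and levels of 0.714 to 0.901 FPKM in libraries labelled CM-RevDKO and 7.97 to 9.43 FPKM in those labelled control. Next came Fbp2, the muscle fructose bisphosphatase (0.212), Ces1d, a carboxylesterase (0.226), Rhobtb1 (0.391) and Ttll1 (0.414). Among those nearest to Naprt1 were Nudt7, a peroxisomal coenzyme A hydrolase (0.0588), Spsb1 (0.0734), Tacc2 (0.0783) and Nudt4 (0.0796). These 9 genes all passed the test and were lower. The call of Nudt7 ended without CM-RevDKO replicate 2 or any control replicate (highest adjusted p = 0.111), and that of Tacc2 without control replicate 1 (adjusted p = 0.0544). With 6 libraries in 2 groups, this measure weighs chiefly the size of the group difference.

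Markers of other cells were read beside the 2 calls. Atrial markers, 9 of 10 tested and 8 of those positive (median log2 difference 0.62), summed to 973 to 1775 FPKM in libraries labelled CM-RevDKO and 356 to 461 FPKM in those labelled control, with 1 higher past the test, Nppa, and Bmp10 at 0 in every library but CM-RevDKO replicate 1. With the atrial covariate, the difference of Nampt was -2.17 (adjusted p = 0.0133) and that of Naprt1 -1.02 (adjusted p = 0.0987). Nppa, which that covariate leaves out, still passed under it (difference 1.81, adjusted p = 0.0133). Its rise was thus not fully shared by Myl7, Myl4 and Sln. The summed atrial markers, Nppa among them, did not overlap between the groups, so atrial content and group cannot be fully told apart. Macrophage markers, 7 of 10 positive (median 0.08) and none past the test, summed to 231 to 391 FPKM in the CM-RevDKO libraries, against 252 to 276 FPKM in the control libraries. Smooth muscle and pericyte markers, 6 of 10 positive (median 0.03) and 1, Abcc9, lower past the test, summed to 657 to 722 FPKM in the CM-RevDKO libraries, against 667 to 783 FPKM in the control libraries. Blood and lymphocyte markers, all 7 of those tested positive (median log2 difference 0.36) and none past the test, summed to 5026 to 5810 FPKM in the CM-RevDKO libraries, against 3051 to 5157 FPKM in the control libraries. The call of Abcc9 ended without control replicate 1 or 2 (adjusted p = 0.0600 and 0.0537), and the part of macrophage, smooth muscle and blood cells in the 2 calls was not tested. Atrial, adipocyte and macrophage sums were highest in CM-RevDKO replicate 1, where Nampt stood at 10.5 FPKM, beside 10.9 and 10.6 FPKM in replicates 2 and 3. With CM-RevDKO replicate 3 alone against the controls, the difference of Nampt was -2.29 and that of Naprt1 -0.87.

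**Figure D5:**
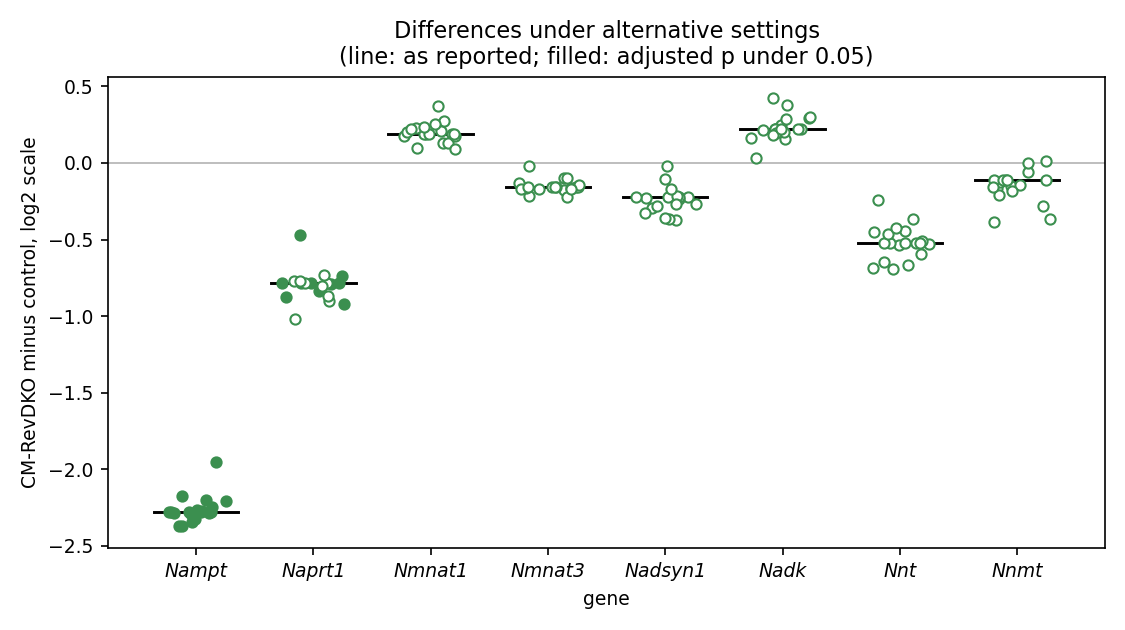
Difference between the libraries labelled CM-RevDKO and control for each of the 8 enzymes (y axis, log2 scale) as reported (line) and under the alternative settings (circles, 18 or 19 per gene, spread sideways for view); filled circles passed the test. All 19 circles of Nampt are filled, 10 of 19 are filled for Naprt1, and none for the other 6.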

How the data were processed

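RNA from hearts labelled CM-RevDKO and control was compared in 3 libraries each. Per the labels' protocols, TRIZOL was used for total RNA and a NEBNext Ultra II kit for the libraries. The submitters' processing notes name HISAT2, StringTie and mm10, without versions, and annotation and use of strand are not stated there. The authors deposited 1 value per gene and library, read here as FPKM, with TPM not excluded. Each of the 6 columns was tied to a label through its group and number. Whole reads could not be recovered: the 15 library pairs had 466 to 876 low genes each, of which no more than 4 had a common log2 ratio to 4 decimals. Depth is unknown, so no counting intervals are given.

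Values were analysed as log2(FPKM + 1) for the 13256 of 13575 genes with a mean of at least 0.5, in limma 3.58.1 (R 4.3.3). The model held group alone, variances were moderated with an intensity trend, and tests were two-sided with Benjamini-Hochberg adjustment at 0.05. Replicates are not stated to be separate animals, so p-values measure the spread between these samples. The fit was tested on simulated data. Symbols were matched by Ensembl ID (13100 IDs), and coordinates, neighbours and promoter windows come from RefSeq GRCm38.p6. The members and gene lists were chosen with earlier results of these data known. The text names all 8 members; from each list, genes past the test or else that with the smallest p; the 5 genes most like Nampt and Naprt1; their nearest measured neighbours; and Nr1d1, Nr1d2, Arntl and Clock. Sypl, Eef1d and Ccdc71l are such neighbours; Gdap10, Nmrk1, Nmrk2 and Slc25a51 were added for position or role. Some genes that this rule takes in are not reported here. Alternatives changed the pseudocount, the filter, the scaling, moderation, tested fold, block, covariate and libraries.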

Additional observations from a re-analysis of the deposited data

How the results depend on the processing

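The count of 332 genes was 35 against a fold change of 1.5, 115 with a replicate block, 105 without both control replicate 2 and CM-RevDKO replicate 1, 21 with CM-RevDKO replicate 3 alone (a fit whose spread comes from the controls, so a call lost in it says nothing about a gene), 30 with the atrial covariate, and 120 to 322 with any library left out. The count of 2 enzymes past the test was 1, Nampt, under each of those first 5 settings, and 1 to 2 with any library left out; pseudocounts of 0.1 and 5, both other filters, 3 other scalings and no intensity trend gave 2. The replicate block used the label numbers, which nothing ties to a shared animal or day. Deviations of same-numbered libraries correlated at -0.037, -0.0642 and 0.0933, beside -0.0885 to 0.109 for the other pairs. These values show no pairing by number and cannot exclude one. Under the block Nampt passed (adjusted p = 0.0038) and Naprt1 did not (adjusted p = 0.0666). The difference of Nnmt was 0.014 without CM-RevDKO replicate 3 and between -0.21 and 0.014 over the fits that left out a library. The Nampt share differed by -14.2 to -13.3 percentage points with any library left out and by -14.0 without Nnmt in the sum. Of the other genes named, Nt5e and Idh1 passed in 11 of 19 alternatives each, Idh2 in 5, Nfil3 in 18, Clock in 9 of 18 and Gdap10 in 16 of 18. Depth is unknown, so what the low transcripts could show is not known.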
